A study of Mus musculus with 12 samples.

Results

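Blood coagulation runs through proteases, protein cofactors and inhibitors, and 9 of its genes were followed across the cell types of mouse breast tumors: F3, F5, F7, F10, F13a1, Tfpi, Tfpi2, Procr and Thbd. They were picked by name, with earlier results of these data known, and all 9 were among the 31053 genes of both count matrices. As background, tissue factor (F3) is the membrane protein that starts the cascade by binding factor VII (F7), and that complex activates factor X (F10). Factor Xa, with its cofactor factor V (F5), makes thrombin, and factor XIII, whose catalytic A subunit is encoded by F13a1, cross-links fibrin. Tfpi and Tfpi2 encode Kunitz-type inhibitors of coagulation proteases, while thrombomodulin (Thbd) and the endothelial protein C receptor (Procr) turn thrombin toward activation of the anticoagulant protein C. The liver makes most circulating factors, macrophages are known to make factors VII and X, and factor Xa also signals to cells through the receptor PAR2.

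The study used female mice on a C57BL/6 background with the MMTV-PyMT transgene, in which a mammary tumor virus promoter drives a viral oncogene and breast tumors arise without further treatment. The mice carried either wild-type PAR2 or the knock-in allele PAR2 G37I, which resists factor Xa, and the labels give no age. Tumor stage differed between the selections, being late for CD11c and mid-size for CD4/CD8. Beads were used for each selection, and sequencing in droplets followed storage of the cells in the frozen state. Each selection had 3 wild-type and 3 PAR2 G37I samples.

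Each matrix pooled its 6 samples, and the files used here do not say which cell came from which sample. Each was therefore 1 sample, no genotype comparison was made, and there were no replicates. The CD11c-selected matrix held 123642015 unique molecular identifiers (UMIs, counted molecules) in 11639 cells, with a median of 7943 per cell. The CD4/CD8-selected matrix held 135965765 UMIs in 22806 cells, with a median of 4361. In each matrix the barcodes ran through the alphabet 6 times, and these barcode runs, with 13314063 to 24231244 and 16203038 to 30168668 UMIs, could not be tied to a sample or genotype. The CD11c-selected run with 13314063 UMIs held only 360 cells, against 1561 to 2784 in each of the others, so its cells were deeper. Between the matrices, 92 barcodes were shared, and 76 and 51 barcodes occurred more than once within the CD11c-selected and CD4/CD8-selected matrix. Levels are UMIs of a gene per 1000000 UMIs of the cell type (CPM), with exact 95% Poisson intervals in brackets. Shares are percent of cells with at least 1 UMI, with exact Clopper-Pearson intervals where given. Where no UMI was found, the upper limit given is that of 3 counts, or of 3 cells for a share, instead of the exact limit. Intervals cover counting error only, and levels are compared between cell types for 1 gene at a time, never between genes.

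Cells were sorted into 12 cell types by raw UMIs of marker genes. In the CD11c-selected matrix the gates held 5029 macrophages, 921 Fn1/Ccr2 myeloid cells (at least 10 UMIs of Fn1 and 2 of Ccr2), 123 Ly6c2 monocytes, 521 and 319 conventional dendritic cells of types 1 and 2 (cDC1, cDC2), and 280 migratory dendritic cells. They also held 33 plasmacytoid dendritic cells, 133 neutrophils, 60 T cells, 307 tumor epithelial cells, 114 fibroblasts and 28 endothelial cells, while 3684 cells passed no gate. In the CD4/CD8-selected matrix 18599 cells were T cells, and 840 macrophages, 22 Fn1/Ccr2 myeloid cells, 91 plasmacytoid dendritic cells, 274 tumor cells, 87 fibroblasts and 22 endothelial cells came with them. The 5 other gates there held fewer than 20 cells each and are not described. Of the markers kept out of the gates, 32 of 36 in the CD11c-selected and 20 of 21 in the CD4/CD8-selected matrix were highest in their own gate. Exceptions in CD11c-selected cells included Irf8 for cDC1, Ifitm1 for cDC2 and Mrc1 for macrophages, which was higher in Fn1/Ccr2 myeloid cells.

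The genes differed in the cell types where they were highest. F3 was highest in tumor cells and fibroblasts, the protease genes F7 and F10 in Fn1/Ccr2 myeloid cells, F5 in neutrophils of the CD11c-selected matrix, and the inhibitor and receptor genes in fibroblasts and endothelial cells, with F13a1 and much of Procr, Tfpi and Thbd also in macrophages. Counting a gene as concentrated when its highest gate was at least 4-fold above all other gated cells, with 1 UMI added to each sum, 8 of 9 members passed in the CD11c-selected matrix, where 38.2% of 13400 genes passed. The exception was F13a1, at 2.53-fold. In the CD4/CD8-selected matrix 8 of 8 members with at least 50 UMIs passed, F5 having too few, beside 41.9% of 13648 genes. The median fold of the members was 10.6 and 68.2, but no median over all genes was computed to set beside it. In the CD4/CD8-selected matrix T cells held 100254466 of 135965765 UMIs, so folds of other gates there compare mostly with T cells.

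**Figure D1:**
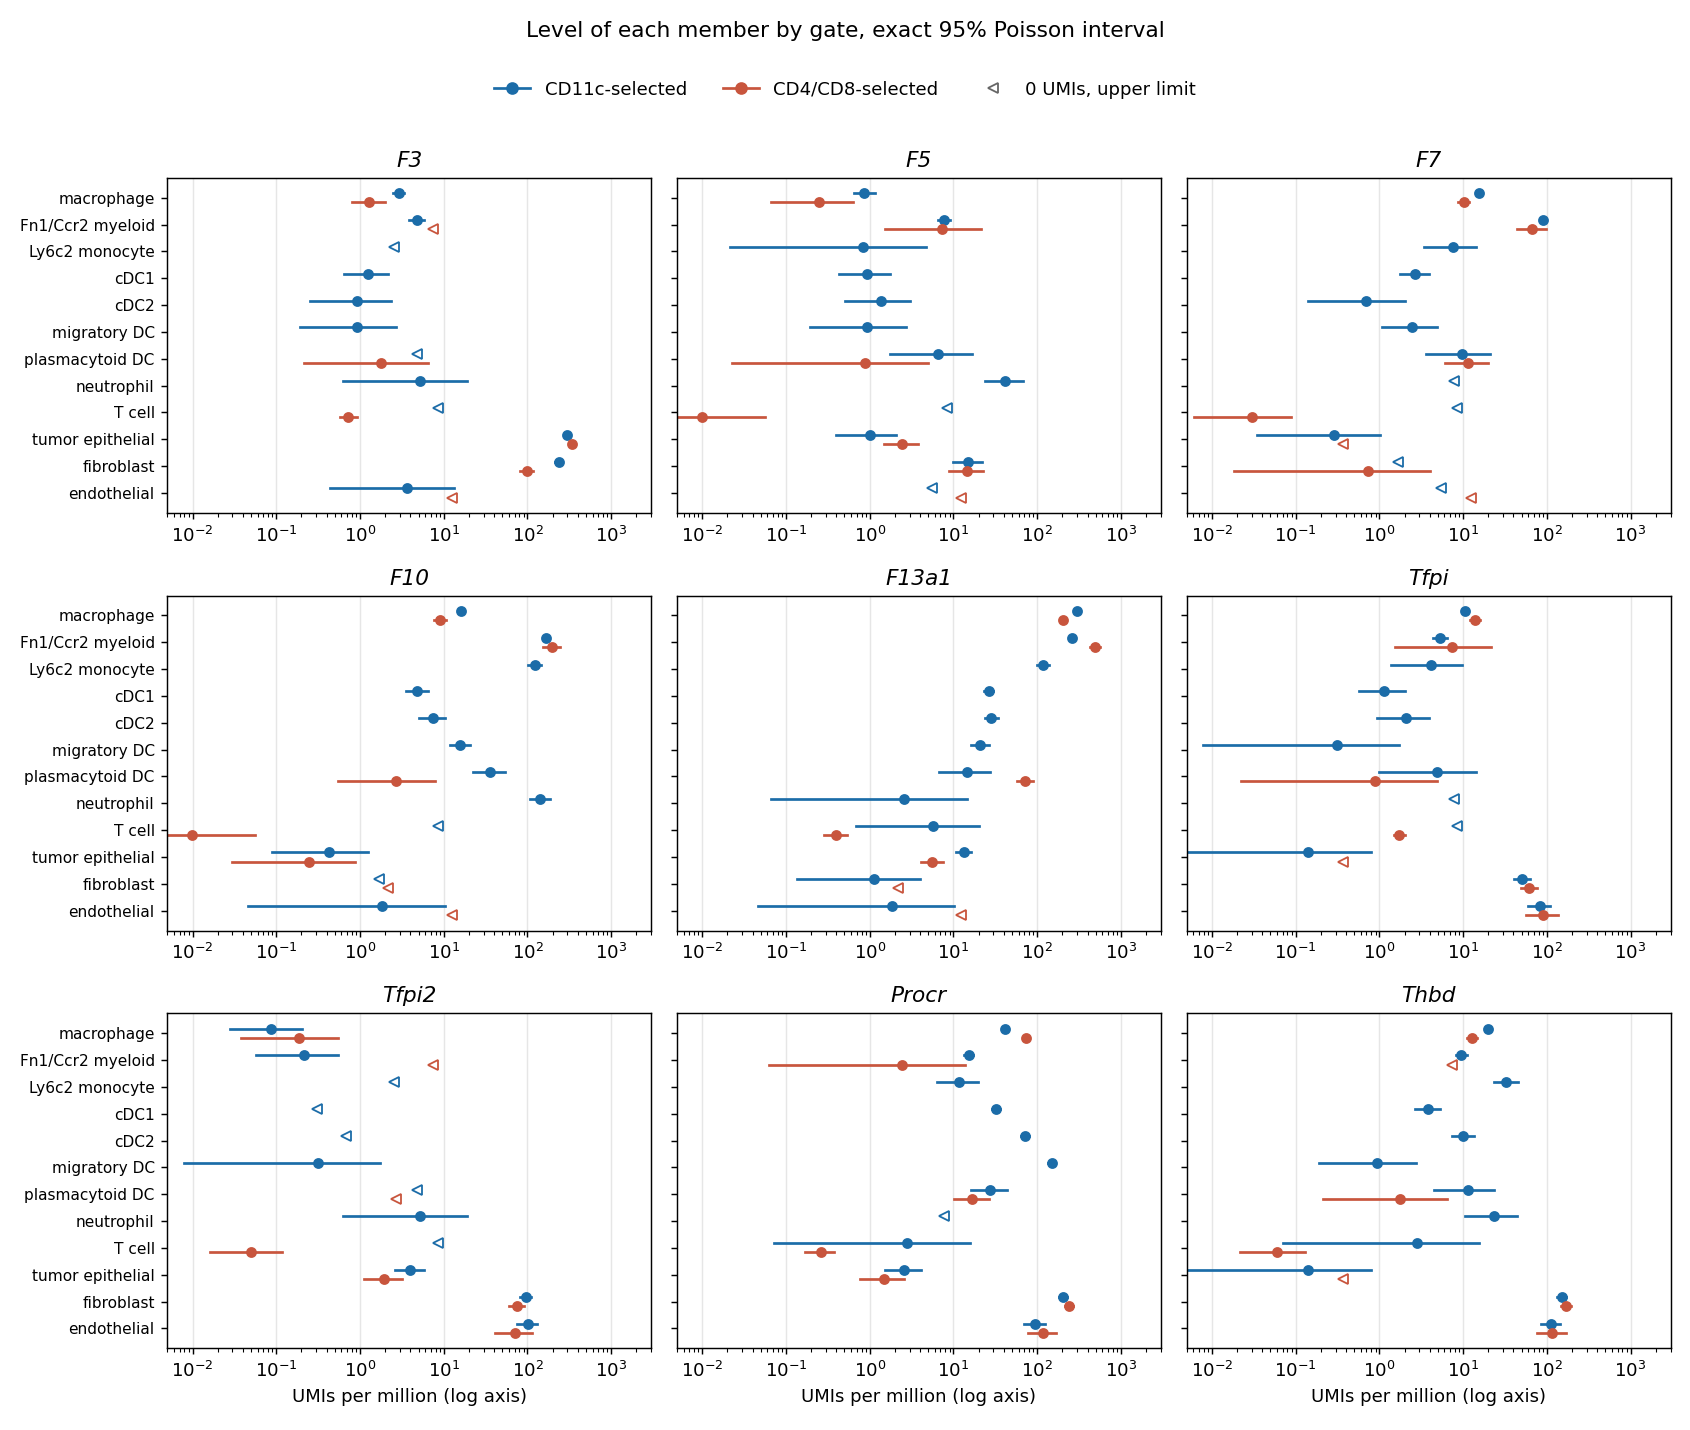
Level of each of the 9 genes (CPM, log axis) by gate with at least 20 cells, with exact 95% Poisson intervals; open triangles mark the upper limit where no UMI was found. F3 peaks in tumor cells at 296 and 338, F7 and F10 in Fn1/Ccr2 myeloid cells at 89.7 and 169 in the CD11c-selected matrix.

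F3, the initiator, came mostly from tumor cells. In the CD11c-selected matrix tumor cells held 69.6% of all F3 UMIs, at 296 CPM (283 to 309) and with F3 in 59.6% of cells. In the CD4/CD8-selected matrix they reached 338 CPM (326 to 351) and 67.2% of cells. T cells, which serve here as the background for shares, had F3 in 0 of 60 cells of the CD11c-selected matrix, which allows up to 5%, and in 0.387% of the CD4/CD8-selected T cells. Median depths were 14380 and 19443.5 UMIs for tumor cells against 4413.5 and 4515 for T cells. Depth moved the share more than the level: tumor cells above the median depth carried F3 in 86.9% (CD11c-selected) and 92.0% (CD4/CD8-selected) of cells, the others in 32.5% and 42.3%, at levels of 289 and 343 against 350.4 and 304 CPM. Single cells differed widely, up to 247 UMIs of F3 in a cell, and the 10% of tumor cells with most F3 held 63.9% and 63.8% of the F3 UMIs of the gate in the 2 matrices. Over the 6 barcode runs of the CD4/CD8-selected matrix, the tumor level was 282 at the lowest, 309 at the median and 511 at the highest, and above macrophages and T cells in 6 of 6 runs. The CD11c-selected tumor level spread more, with 129, 289 and 489 over the 4 runs with at least 20 tumor cells, and in these 4 of the 6 runs tumor cells were highest.

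Fibroblasts came next for F3, at 238 CPM (216 to 261) in CD11c-selected cells and 97.7 (81.9 to 116) in CD4/CD8-selected cells. The order of the 2 gates in the CD11c-selected matrix rested on the cells kept. With cells of at most 10% mitochondrial UMIs, tumor cells had 205 CPM and fibroblasts 261. Without that limit tumor cells were above fibroblasts in 3 of the 3 runs that could be compared, although the fibroblast level ran from 49.8 to 403. Within the gate, cells with Pdgfra, a receptor of connective tissue fibroblasts, had 297 CPM (269 to 327) and cells with Rgs5, a pericyte marker, 37.5 (17.1 to 71.1). The same sub-gates of the CD4/CD8-selected matrix stood at 129 and 7.25 CPM. Macrophages had far less F3, 2.91 and 1.30 CPM in the 2 matrices, and Fn1/Ccr2 myeloid cells 4.78 CPM in the CD11c-selected one. Inside the macrophage gate, the 243 cells with Lyve1, a receptor of perivascular macrophages, had 12.2 CPM (8.69 to 16.7), against 2.70 in cells with neither Lyve1 nor Gpnmb and 0.969 in cells with Gpnmb, a lysosomal glycoprotein of lipid-laden macrophages. This split was not seen in the CD4/CD8-selected macrophages, with no F3 UMI in 24 Lyve1 cells, which allows up to 11.9 CPM. Cells with Gpnmb had 1.33 CPM there and cells with neither 1.31. The Lyve1 limit lies within the CD11c-selected interval, so 24 cells were too few to show whether the higher Lyve1 level recurred. These sub-gates, like those for Siglecf and for depth, were chosen after the data were seen.

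F7 and F10, the protease genes, peaked in the Fn1/Ccr2 myeloid cells. F7 stood there at 89.7 CPM (85.5 to 94.1) and in 41.7% of cells, at a median depth of 17427 UMIs, with 57.6% of all F7 UMIs of the CD11c-selected matrix. Macrophages followed at 15.6 CPM (14.6 to 16.6), monocytes at 7.55 (3.45 to 14.3), cDC1 at 2.69 and migratory dendritic cells at 2.49. Plasmacytoid dendritic cells, at 9.71 (3.56 to 21.1), could not be told apart from macrophages or monocytes. No F7 UMI was found in 133 neutrophils, which allows up to 7.78 CPM, nor in 114 fibroblasts, which allows up to 1.67, nor in the 60 T cells, which allows up to 8.45. Among CD4/CD8-selected cells F7 stood at 66.4 CPM (43.8 to 96.6) in Fn1/Ccr2 myeloid cells, 10.2 (8.68 to 11.9) in macrophages and 0.0299 in T cells, and 1 plasmacytoid dendritic cell held the 13 F7 UMIs of its gate.

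F10 was spread over more of the myeloid cells. Fn1/Ccr2 myeloid cells had 169 CPM (163 to 175), with F10 in 62.8% of cells and 61.5% of all F10 UMIs. Neutrophils had 143 CPM (107 to 186) and monocytes 122 (103 to 143), so neutrophils could not be told apart from either neighbor. Plasmacytoid dendritic cells had 35.6 (22.3 to 53.9), from 22 UMIs in 3 cells, macrophages 15.9 (14.9 to 17.0), migratory dendritic cells 15.8 (11.8 to 20.8), cDC2 7.35 and cDC1 4.86. The level of migratory dendritic cells was uneven, with 0, 3.91 and 33.0 CPM as lowest, median and highest of 5 runs, beside a macrophage median of 15.2. T cells of the CD4/CD8-selected matrix had 1 F10 UMI among 18599 cells, and its Fn1/Ccr2 myeloid cells had 194 CPM (154 to 242). The monocyte level depended on the gates: it was 77.9 CPM when the UMI minimums of all gates were halved and 178 when they were doubled, beside 155 and 186 in Fn1/Ccr2 myeloid cells. Several myeloid gates overlapped. Without cells of more than 1 gate, 409 of the 921 Fn1/Ccr2 myeloid cells, 59 of the 123 monocytes and 18 of the 33 plasmacytoid dendritic cells remained, and F10 stood at 206 CPM in the first and 174 in the second. Macrophage markers summed to 4571, 7410 and 8027 CPM in these 3 gates as reported, and Fn1/Ccr2 markers to 1205 in the third. Their part in the coagulation transcripts of these gates was not tested.

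At equal depth Fn1/Ccr2 myeloid cells still had the highest shares among these gates. The neutrophil share came from 106 cells, and differences between the shares were not tested. At full depth F10 was in 28.5% of monocytes, at a median of 8717 UMIs, and in 15.04% of neutrophils, at a median of 2956. After all cells with at least 2000 UMIs were thinned to 2000, F10 was in 23.3% of Fn1/Ccr2 myeloid cells, 15.1% of neutrophils, 13.9% of monocytes and 2.28% of macrophages, and F7 in 13.5% of Fn1/Ccr2 myeloid cells and 1.60% of macrophages. The barcode runs gave a firmer order for F7 than for F10. Fn1/Ccr2 myeloid cells were highest for F7 in 6 of 6 runs, and for F10 in 4 of 6. Monocytes were highest for F10 in 1 of the 4 runs, and neutrophils in 1 of the 3 runs, with at least 20 of the respective cells. The 4 of 6 includes runs with too few of both gates to rank either, so it overstates the F10 lead. F10 in Fn1/Ccr2 myeloid cells was 151 CPM at the lowest, 171 at the median and 186 at the highest of 6 runs, and F7 was 64.8, 94.8 and 115. Both genes were higher in these cells than in macrophages in 6 of 6 runs. F10 in monocytes varied more, from 23.0 to 234 CPM over the 4 runs with at least 20 of these cells, and in neutrophils from 69.9 to 224 over 3 runs.

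The neutrophil gate also held cells with an eosinophil marker. Siglecf stood at 511 CPM and in 61.7% of its cells, while the eosinophil genes Prg2 and Ccr3 stood at 0 and 2.59 CPM, and the 3 genes summed to 513. F10 was 134 CPM (93.7 to 185) in the 82 cells with Siglecf and 163 (98.3 to 255) in the 51 cells without it, and the intervals overlapped. The part of these marker genes in the result was not tested.

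**Figure D2:**
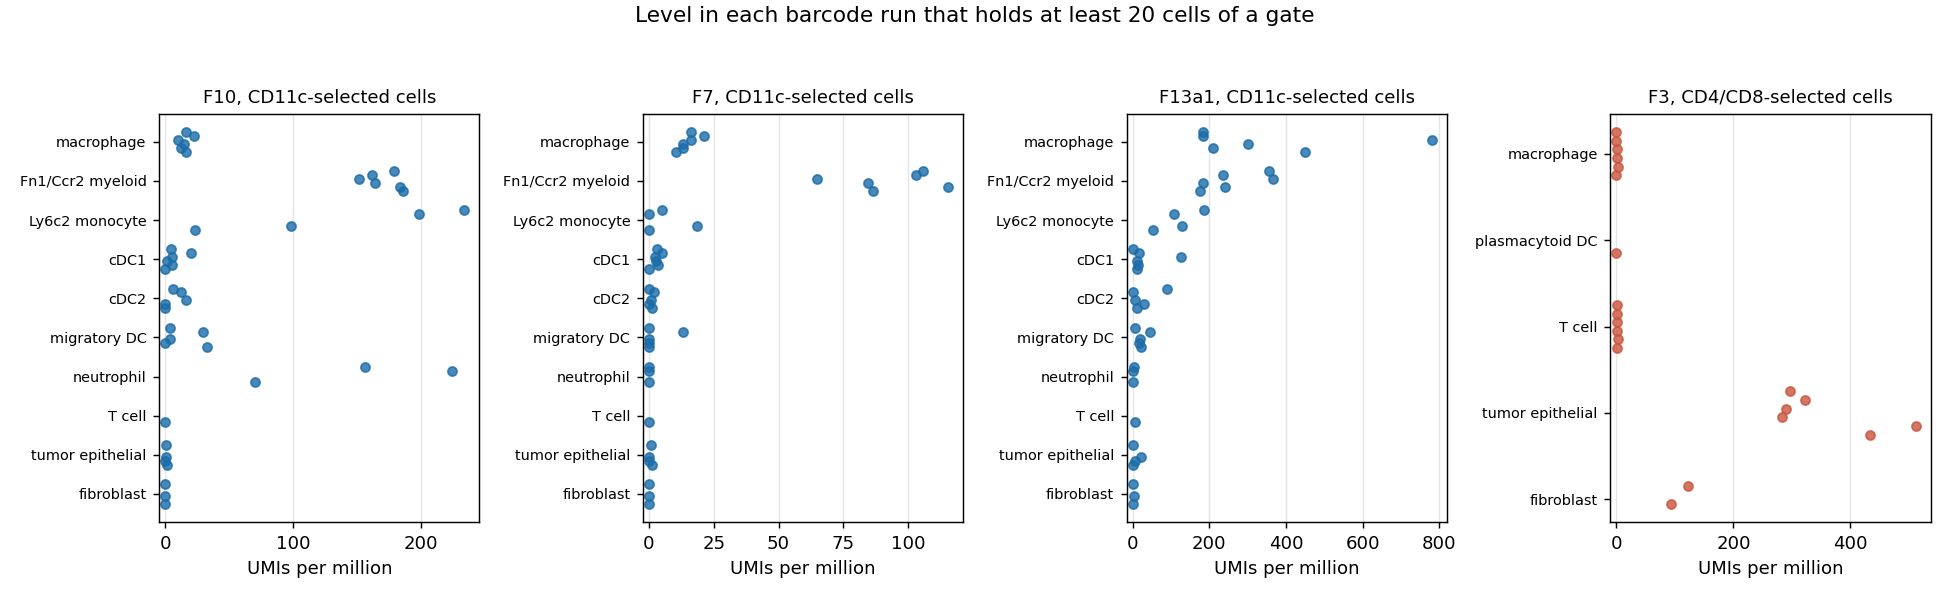
Level (CPM) of F10, F7 and F13a1 in CD11c-selected cells and of F3 in CD4/CD8-selected cells, 1 point per barcode run with at least 20 cells of the gate. F10 in Fn1/Ccr2 myeloid cells lies between 151 and 186 in 6 runs, whereas F13a1 in macrophages runs from 184 to 781.

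Macrophages were not uniform for the protease genes. The 418 CD11c-selected macrophages with Gpnmb had F7 at 65.4 CPM (60.6 to 70.5) and F10 at 42.8 (38.9 to 47.0), against 4.03 and 10.1 in the 4366 macrophages with neither Gpnmb nor Lyve1. The Gpnmb cells were also deeper, with a median of 21920 UMIs against 8685.5. The CD4/CD8-selected matrix showed the same split at lower levels, with F7 at 15.1 and F10 at 13.6 CPM with Gpnmb and 2.13 and 2.29 with neither. The F7 level of all macrophages rested on deep cells: it was 10.3 CPM without the deepest 5% of each gate and 9.26 as a mean over cells.

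F5, the cofactor gene, was scarce, with 302 UMIs in the CD11c-selected and 54 in the CD4/CD8-selected matrix. Its highest level in CD11c-selected cells was in neutrophils, 41.5 CPM (23.7 to 67.4) from 16 UMIs in 14 cells, of which 13 UMIs lay in the Siglecf cells, at 48.3 CPM (25.7 to 82.6) against 25.8 (5.32 to 75.3) without Siglecf. By barcode run, neutrophils were highest in the 3 runs with at least 20 of them. In the remaining runs, where neutrophils were not ranked, Fn1/Ccr2 myeloid cells were highest in 2 and fibroblasts in 1. Fn1/Ccr2 myeloid cells had 7.81 (6.60 to 9.18), with F5 in 10.9% of cells and 48.7% of the UMIs, above macrophages at 0.867 (0.643 to 1.14). The fibroblast level of 15.02 CPM came mostly from 1 cell, which held 23 of 27 UMIs, and in the CD4/CD8-selected fibroblasts 1 cell held 19 of 20. Tumor cells there had 2.44 CPM (1.49 to 3.77), from 20 UMIs in 13 cells, and were highest in 5 of 6 runs. T cells had no F5 UMI in the CD11c-selected matrix and 1 in the CD4/CD8-selected one.

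F13a1, the transglutaminase gene, marked macrophages and their relatives. CD11c-selected macrophages held 70.1% of its UMIs, at 296 CPM (292 to 301) and in 29.9% of cells, above Fn1/Ccr2 myeloid cells at 262 (255 to 269), which carried it in more cells, 58.7%. Monocytes had 118 CPM (99.5 to 139), cDC2 28.5, cDC1 26.5 and migratory dendritic cells 20.8, and T cells 5.63 in the CD11c-selected and 0.399 in the CD4/CD8-selected matrix. In CD4/CD8-selected cells the order turned, with 492 CPM (426 to 565) in 22 Fn1/Ccr2 myeloid cells and 205 (199 to 213) in macrophages. The order also rested on the gates and the runs. The Fn1/Ccr2 level was 133 CPM without cells that met more than 1 gate, and each of the 2 gates was highest in 3 of the 6 CD11c-selected runs.

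Lyve1 separated F13a1 within macrophages in both matrices. The 243 CD11c-selected cells with Lyve1 had 2298 CPM (2246 to 2351), and 243 of them carried F13a1. The 24 such cells among the CD4/CD8-selected macrophages had 2301 (2117 to 2496), again with F13a1 in 100% of cells. Macrophages with Gpnmb had 158 and 157 CPM, and those with neither 184 and 191, at median depths of 9830 and 9827.5 UMIs for the Lyve1 cells and 8685.5 and 11549 for cells with neither. Over the 6 CD11c-selected runs the macrophage level was 184 at the lowest, 255 at the median and 781 at the highest. The highest came from the run of 360 deeper cells, which had the fewest macrophages, 169. Without that run the macrophage level was 245. In the CD4/CD8-selected matrix, where 1 run held 449 of the 840 macrophages, it was 310 without that run. The platelet gene Pf4, part of a list checked because platelets carry factor XIII, stood at 514 CPM in CD11c-selected and 1491 in CD4/CD8-selected macrophages. The rest of that list was low in these cells, with Gp9 at 0 in both, Itga2b at 0.295 and 0.0617 and Ppbp at 1.53 and 1.42 CPM, and the list summed to 516 and 1492. Their part in the result was not tested.

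The inhibitor genes were highest in the stroma, and Tfpi was also seen in macrophages. Endothelial cells had Tfpi at 82.5 CPM (60.2 to 110.4) and in 67.9% of cells, and fibroblasts at 50.6 (40.8 to 62.2), with intervals that overlapped. The CD4/CD8-selected matrix gave 91.1 and 61.5 CPM for these gates. By run, fibroblasts were highest for Tfpi, Tfpi2, Procr and Thbd in the 3 CD11c-selected and 2 CD4/CD8-selected runs with at least 20 fibroblasts. Other gates were highest in the remaining runs. The lead of endothelial cells could not be checked, since the largest run held 8 and 5 of them. Macrophages had 10.6 CPM (9.82 to 11.5), yet, being many, 63.4% of the Tfpi UMIs of the CD11c-selected matrix. Tfpi was in 10.2% and 20% of macrophages of the 2 matrices, against 0 of 60 and 0.909% of T cells, at macrophage depths of 9311 and 17690 UMIs. Tumor cells, the main source of F3 UMIs, had 1 Tfpi UMI in the CD11c-selected matrix and none among 274 CD4/CD8-selected cells, which allows up to 0.366 CPM.

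Tfpi2 was narrower. Endothelial cells, at 101 CPM (75.9 to 131), and fibroblasts, at 95.1 (81.4 to 111), could not be told apart, and fibroblasts held 60.4% of the UMIs. The CD4/CD8-selected matrix gave 70.4 (41.0 to 113) and 74.6 (60.9 to 90.4). The other CD11c-selected gates stood at or below 5.19 CPM, the value of 2 UMIs in neutrophils. Tumor cells had 3.99, and macrophages had 5 UMIs in 5029 cells.

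Procr and Thbd, the receptor genes of the protein C pathway, were both highest in fibroblasts. Procr was also found in dendritic cells and macrophages. Procr was highest in fibroblasts, at 204 CPM (183 to 226) and 241 (216 to 268) in the 2 matrices. Migratory dendritic cells followed at 149 (136 to 162), with Procr in 38.6% of cells, then endothelial cells at 93.5 (69.6 to 123) and cDC2 at 71.0 (63.3 to 79.4), which overlapped each other. The fibroblast lead over migratory dendritic cells in the CD11c-selected matrix rested on cells with Rgs5. Fibroblasts with Pdgfra had 141 (122 to 162) there and those with neither marker 134 (87.7 to 197), both overlapping migratory dendritic cells. Macrophages had 41.7 (40.0 to 43.4) and cDC1 32.0 (28.6 to 35.8), above Fn1/Ccr2 myeloid cells at 15.2 (13.5 to 17.1), and no UMI was found in 133 neutrophils. Migratory dendritic cells were above cDC2, cDC1 and macrophages in 5 of the 5 runs with at least 20 of these cells. CD4/CD8-selected macrophages had 72.9 CPM with Procr in 40.4% of cells, against 0.134% of T cells, but 42.2 CPM without the run that held 449 of the 840 cells. Macrophages with Gpnmb had 68.1 and 85.5 CPM in the 2 matrices and those with Lyve1 7.83 and 7.95, the reverse of the order for F13a1.

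Within the fibroblast gate the level of Procr was higher in cells with the pericyte marker Rgs5 than in cells with Pdgfra, but its share was not. The 22 CD11c-selected cells with Rgs5 had 616 CPM (521 to 724) and the 66 with Pdgfra 141 (122 to 162). In the CD4/CD8-selected matrix 23 cells with Rgs5 had 645 (554 to 747) and 51 with Pdgfra 144 (121 to 171). Procr was found in 8 and 9 of the Rgs5 cells, or 36.4% and 39.1%, against 45.5% and 52.9% of the Pdgfra cells, which were deeper, at medians of 18928.5 and 18674 UMIs against 10427.5 and 8460. Rgs5 itself stood at 1166 CPM in 21.1% of the CD11c-selected gate and 924 in 31.0% of the CD4/CD8-selected gate, Cspg4, the other pericyte gene, at 79.0 and 73.1, and the pair summed to 1245 and 998. Their part in the result was not tested.

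Thbd also peaked in the stroma, where the gates overlapped, with 150.2 CPM (133 to 169) in fibroblasts and 112 (85.5 to 144) in endothelial cells of the CD11c-selected matrix and 171 (150 to 194) and 116 (77.0 to 168) in the other. Among CD11c-selected immune cells of the tumors, monocytes had 32.7 (23.3 to 44.7), macrophages 20.02 (18.9 to 21.2) and neutrophils 23.3 (10.7 to 44.3), whose interval met both others. The runs did not settle the order of monocytes and macrophages. Over 4 runs the monocyte level was 4.87 at the lowest, 15.6 at the median and 64.4 at the highest, beside a macrophage median of 18.9. Lyve1 macrophages were higher, at 104 CPM (93.2 to 116) and 195 (144 to 257), with Thbd in 30.5% and 41.7% of cells. Macrophages with neither marker had 13.9 and 16.03 CPM. Migratory dendritic cells, high for Procr, had 0.932 CPM of Thbd, so the 2 receptor genes parted there.

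How many of the genes shared a cell differed by gate. In Fn1/Ccr2 myeloid cells 37.4% of cells carried at least 3 of the 9 genes and 9.23% none, against 6.96% and 47.1% of macrophages. Fibroblasts had at least 3 in 43.9% of cells and endothelial cells in 57.1%. T cells carried at most 1 of the 9, and none was found in 93.3% of them in the CD11c-selected matrix and 98.3% in the other. Much of this went with depth. After thinning to 2000 UMIs, at least 3 were found in 5.15% of fibroblasts, 1.52% of Fn1/Ccr2 myeloid cells, 0.718% of macrophages and none of 27 endothelial cells. No member was found in 69.2% of macrophages, 43.9% of Fn1/Ccr2 myeloid cells, 40.7% of endothelial cells and 38.1% of fibroblasts.

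F7 and F10 met in the same cells most clearly among macrophages. There, F7 was in 40.7% (35.7 to 45.9) of the 378 cells with F10 and in 2.62% of those without, at median depths of 16667.5 and 8956 UMIs. In the 2293 macrophages with at least 10000 UMIs, thinned to that depth, which was chosen after the data were seen, the shares were 36.5% (29.6 to 43.7) and 4.57% (3.72 to 5.55), and at 2000 UMIs 14.8% and 1.30%. The CD4/CD8-selected macrophages gave 26.3% and 5.37% at full depth, and 21.4% (10.3 to 36.8) and 4.71% at 10000 UMIs. In Fn1/Ccr2 myeloid cells F7 was in 54.7% (50.5 to 58.8) of cells with F10 and 19.8% of those without, and in 46.7% and 23.2% at 10000 UMIs. At 2000 UMIs the gap there narrowed to 16.4% and 12.6%. Both genes were in 34.3% of Fn1/Ccr2 myeloid cells and 3.06% of macrophages. The macrophage shares pool unlike cells. Among CD11c-selected macrophages, F7 and F10 were in 40.7% and 43.1% of the 418 with Gpnmb. They were in 2.06% and 4.10% of the 4366 with neither Gpnmb nor Lyve1. Whether the 2 genes met within these sub-gates was not tested.

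**Figure D3:**
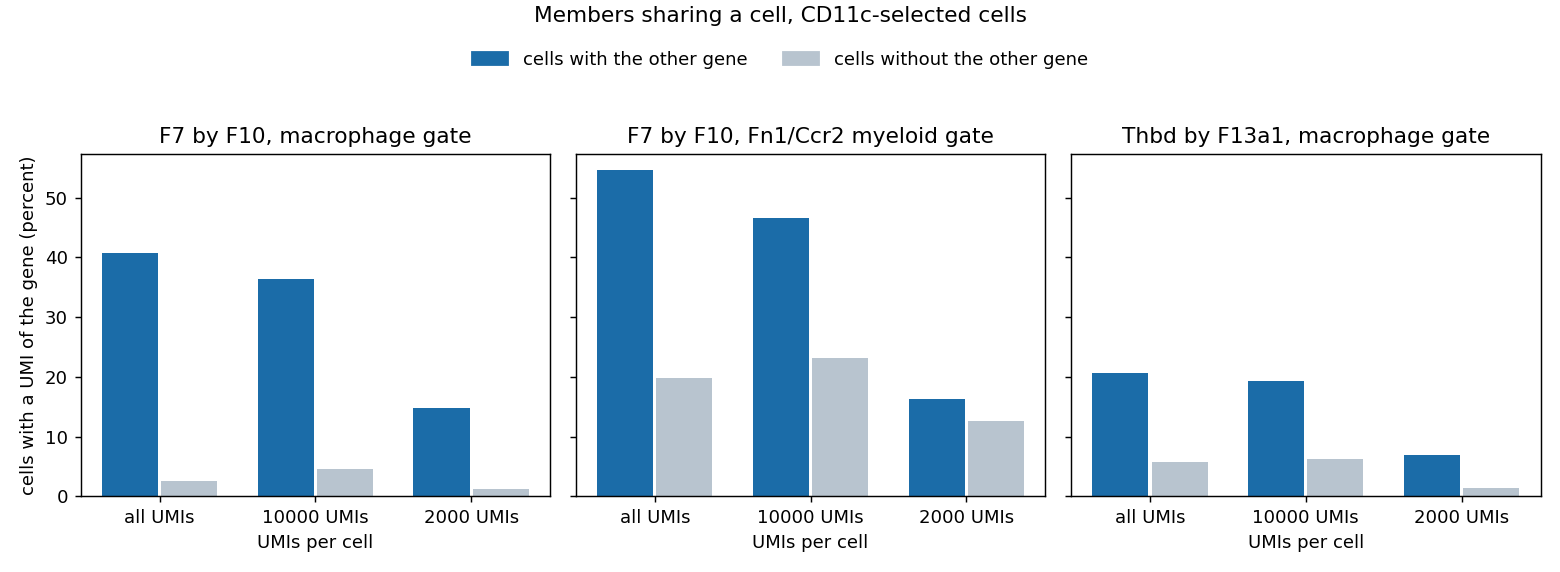
Percent of cells with a UMI of F7 in cells with and without F10, and of Thbd in cells with and without F13a1, in CD11c-selected cells at full depth and thinned to 10000 and 2000 UMIs; no error bars are drawn. In macrophages F7 is in 40.7% of cells with F10 and 2.62% without at full depth, and in 14.8% and 1.30% at 2000 UMIs.

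F5 joined this pair in a few Fn1/Ccr2 myeloid cells. F10 was in 86.0% of the 100 cells with F5 and 59.9% of the others, at median depths of 23421.5 and 17000 UMIs, and F5, F7 and F10 met in 60 cells, or 6.51%. F3 was rare in myeloid cells, and so was its meeting with the proteases. F3, F7 and F10 shared 25 Fn1/Ccr2 myeloid cells (2.71%) and 6 macrophages (0.119%), while among CD11c-selected tumor cells 2 carried F3 with F7 and 2 carried F3 with F10. None of the 60 CD11c-selected T cells held all of F3, F7 and F10, which allows up to 5%. The part of background UMIs in these meetings was not tested. Cells with F3 were too few to show whether the proteases were as frequent there as elsewhere. At 10000 UMIs, 12 of 25 Fn1/Ccr2 myeloid cells with F3 had F10, or 48% (27.8 to 68.7), against 56.6% of those without F3. F7 was in 10 of the 25, or 40% (21.1 to 61.3), against 36.3%. F10 and F13a1 were together in 37.7% of Fn1/Ccr2 myeloid cells, but F10 was hardly more frequent with F13a1 (64.1%) than without it (60.8%).

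In CD11c-selected macrophages F13a1 went with Thbd, F7 and F10 and away from Procr. Thbd was in 20.7% of the 1504 cells with F13a1 and 5.67% of the others, although both had like depth, 9237.5 and 9332 UMIs. At 10000 UMIs the shares were 19.2% and 6.19%, and at 2000 UMIs 6.91% and 1.38%. The proteases also went with F13a1 in these cells. At 10000 UMIs F10 was in 15.8% of cells with F13a1 and 5.65% of the others, and F7 in 15.3% and 4.29%, while the CD4/CD8-selected macrophages gave 7.43% and 6.22% for F10 and 10.9% and 3.46% for F7. At full depth Procr was in 10.9% of cells with F13a1 and 18.1% of those without, and in 2.69% and 5.49% at 2000 UMIs. The CD4/CD8-selected macrophages gave 16.8% and 7.31% for Thbd, and 38.6% and 41.5% for Procr, at full depth. At 10000 UMIs they gave 10.4% and 4.61% for Thbd, and 27.7% and 32.9% for Procr. In fibroblasts F3 and Tfpi shared 33 of 114 cells, with Tfpi in 60.0% of cells with F3 and 28.8% of those without. The depths there were 19380 and 7938 UMIs, and at 2000 UMIs the order turned to 5% and 11.7%. Procr and Thbd shared 42.9% of the 28 endothelial cells and 21.9% of fibroblasts.

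Of 24 other genes of the cascade, fibrinogen, the protein C pathway, serpins and the carboxylation and transport machinery, 13 had at least 50 UMIs in the gated CD11c-selected cells and 11 in the CD4/CD8-selected ones, and 10 and 10 of these passed the 4-fold rule, which 38.2% and 41.9% of all genes passed. The median folds were 6.37 and 15.6, again with no median over all genes to set beside them. Tumor cells held the fibrinogen genes Fgb and Fgg, at 1092-fold and 783-fold above other gated cells in the CD11c-selected and 465-fold and 2858-fold in the CD4/CD8-selected matrix, while Fga had 0 and 1 UMIs. Vwf, the platelet adhesion protein, was highest in endothelial cells at 16.7-fold and 269-fold. Pros1, the protein S gene, Serpine2, a thrombin inhibitor, and Ggcx and Vkorc1 of the vitamin K cycle were highest in fibroblasts in both matrices. Those under 4-fold were Lman1, Mcfd2 and Furin, of protein transport and processing, in the CD11c-selected matrix and the antithrombin gene Serpinc1 in the other. With 72, 164 and 62 UMIs in gated CD11c-selected cells, F9 and Serpinc1 were highest in the 33 plasmacytoid dendritic cells and Klkb1 in monocytes, but these gates held only 1, 5 and 2 UMIs of them, so that their passing the rule rested on very few counts. F9 and Klkb1 passed only through the 1 UMI added to each sum. F12, F13b, Kng1, Serpina5 and Serpina10 had no UMI in CD11c-selected cells, and F2, the prothrombin gene, had 5.

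Profiles of log2(CPM + 1) were compared over the 15 gates of both matrices with at least 50 cells, as a description with no test, since the gates share libraries and differ in depth. Among members, F7 and F13a1 were most alike (Pearson r 0.86), then Tfpi and Thbd (0.82), F3 and Tfpi2 (0.75) and F5 and Tfpi2 (0.73), and F7 with F10 gave 0.61. Of 11467 other genes, those most like F3 were Wwtr1, Morc4, Atp9a, Yap1 and Ntn1 (0.98 each). F7 was most like Lyz1 (0.94), Ccl24, Ms4a8a, Kcnk13 and P2ry10b, and F10 most like Clec4e (0.95), Sem1, Il1rn, Sirpb1b and Sirpb1c. F13a1 was most like Mrc1 (0.94), Ctsc, Kcnk13, Slc13a3 and C3ar1, so Kcnk13 stood beside both F7 and F13a1. F5 was most like Lsmem1 (0.90), Gpc3, Hipk3, Dcaf10 and 0610037L13Rik. The values for F5 used the 2 fibroblast gates, where most of its UMIs came from 1 cell each. For the inhibitors, Tfpi was most like Agmo (0.94), Bdh2, Rnase4, Dennd2a and Cd109, and Tfpi2 most like Medag (0.99), Gas1, Cdr2l, Srgap1 and C1s1. For the receptors, Procr was most like Iah1 (0.90), Nav1, Adam22, Axl and Eng, and Thbd most like Slfn5 (0.93), Ifi204, Ggt5, Spon1 and Igfbp6.

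F7 and F10 are neighbors in the genome. On build GRCm38, F7 lies at chr8:13026034-13035809 and F10 at chr8:13037308-13056676, both on the plus strand, with 1498 bases between them. F3 lies at chr3:121723537-121735048 on the plus strand, F5 at chr1:164151838-164220277 on the plus strand, F13a1 at chr13:36867178-37050244 on the minus strand, and Tfpi2 at chr6:3962595-3988919 on the minus strand. Tfpi (chr2:84432855-84476775, minus), Thbd (chr2:148404466-148408188, minus) and Procr (chr2:155751117-155755471, plus) share chromosome 2. F13a1 overlaps 2 antisense genes of the matrices.

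The RefSeq promoter table (build GRCm38.p6) held 8 of the 9 genes and had no entry for Thbd. The 250 bases before the start of F3, F7, F10 and F13a1 are shown because, in the CD11c-selected matrix, F3 was highest in tumor cells, F7 and F10 in Fn1/Ccr2 myeloid cells and F13a1 in macrophages. Capitals mark letters found on either strand for AP-1 (TGANTCA), PU.1 (GAGGAAG), C/EBP (TTGCNNAA) and Sp1 (GGGCGG), which occur in 6.75%, 10.6%, 9.56% and 32.7% of 32851 promoters of this length. They lie at chr3:121723287-121723536 (plus), chr8:13025784-13026033 (plus), chr8:13037058-13037307 (plus) and, for the first of 2 F13a1 starts, chr13:37050245-37050494 (minus).
F3: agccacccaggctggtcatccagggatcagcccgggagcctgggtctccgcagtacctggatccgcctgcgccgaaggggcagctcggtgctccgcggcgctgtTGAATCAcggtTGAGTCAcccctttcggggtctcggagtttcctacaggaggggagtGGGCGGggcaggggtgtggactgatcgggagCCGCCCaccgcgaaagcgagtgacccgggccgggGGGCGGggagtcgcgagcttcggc
F7: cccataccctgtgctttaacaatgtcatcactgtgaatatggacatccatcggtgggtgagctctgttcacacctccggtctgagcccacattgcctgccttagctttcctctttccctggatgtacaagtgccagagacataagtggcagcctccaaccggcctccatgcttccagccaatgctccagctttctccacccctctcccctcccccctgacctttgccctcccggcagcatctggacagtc
F10: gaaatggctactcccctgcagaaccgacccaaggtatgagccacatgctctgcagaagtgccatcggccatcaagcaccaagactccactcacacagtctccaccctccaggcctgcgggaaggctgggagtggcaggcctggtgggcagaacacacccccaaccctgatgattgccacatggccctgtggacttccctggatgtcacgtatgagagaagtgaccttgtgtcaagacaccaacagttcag
F13a1: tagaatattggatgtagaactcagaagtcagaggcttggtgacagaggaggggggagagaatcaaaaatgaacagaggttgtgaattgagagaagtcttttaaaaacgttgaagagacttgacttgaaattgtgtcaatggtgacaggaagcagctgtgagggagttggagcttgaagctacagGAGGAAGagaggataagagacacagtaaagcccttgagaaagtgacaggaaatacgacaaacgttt
The F3 promoter, with 70.0% G and C against a median of 52.4%, held 2 AP-1 matches, 146 and 135 bases before the start, and 3 Sp1 matches, 89, 58 and 24 bases before it. The F7 and F10 promoters held none of the 4 motifs, and the first F13a1 promoter held 1 PU.1 match 66 bases before the start, while the second, at chr13:37049214-37049463, held none of the 4. A match describes letters and does not show binding.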

How the data were processed

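Single cells of 12 samples were measured as UMI counts per gene and cell, which the authors deposited as whole numbers in 1 matrix per selection, without normalization. The submitters' notes name Cell Ranger 3.0.2 and mm10; the sources used here give neither the annotation nor any cell filter of theirs. Barcodes with fewer than 200 detected genes were left out (341 and 295). Gates used raw UMIs: at least 3 of 5 or 6 lineage markers (T cell, tumor, fibroblast, endothelial, neutrophil), then plasmacytoid, migratory DC, cDC1, Fn1/Ccr2, cDC2, monocyte and macrophage markers in that order. Cells of more than 1 lineage (87 and 182) were left out, and no doublet caller was run. Gates under 20 cells were not described. Members and lists were chosen with earlier results of these data known. Named genes were the 9 members, other coagulation genes with at least 50 UMIs, gate markers, and the 5 genes most like each member; coagulation genes near 0 UMIs and the markers of other cell types were named after their values were seen. The values of 1 marker are not reported here. Thinning drew UMIs without replacement. The genotype test planned with edgeR was not run. Positions came from GENCODE M21. Python 3.11.15, numpy 2.4.6, scipy 1.17.1, pandas 2.3.3 and matplotlib 3.10.9 were used.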

Additional observations from a re-analysis of the deposited data

Results flagged for a closer look

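Barcodes under the minimum of 200 detected genes entered no comparison, yet held UMIs of F3 and F13a1 above the limit that a count of 0 allows (3 counts). In the 341 such CD11c-selected barcodes there were 7 UMIs of F3 and 9 of F13a1. In the 295 such CD4/CD8-selected barcodes there were 5 of F3 and 4 of F13a1. Of 14 levels compared over barcode runs, 0 had a run standing apart by Dixon's ratio.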

How the results depend on the processing

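Of 243 values recomputed for 26 results under settings other than leaving out runs, 180 stayed within the counting interval of the reported value. With UMI minimums doubled, levels were 186 CPM for F10 and 96.9 for F7 in Fn1/Ccr2 myeloid cells (74.4% and 49.4% of cells) and 305 for F13a1 in macrophages; halved, F10 was 155 and F7 81.7 (55.8% and 36.3%). Without cells of more than 1 gate, F10 was 206 (68.2%) and F7 84.7. With cells of more than 1 lineage kept, F3 in tumor cells was 253, and in fibroblasts Procr was 162, Tfpi2 77.5 and Thbd 128. At most 10% mitochondrial UMIs gave F13a1 283, F3 205, Procr 169 and Thbd 170.2. Without the deepest 5%, F10 was 175, Procr 230.0 and F7 among macrophages with F10 33.2%. As means over cells, F13a1 was 328, F3 279 and Procr 232. By macrophage sub-gate F13a1 was 2298 with Lyve1, 158 with Gpnmb and 184 with neither. At 2000 UMIs, shares were 23.3% for F10, 13.5% for F7, 16.4% and 14.8% for F7 among F10 cells (Fn1/Ccr2, macrophage) and 6.91% for Thbd among F13a1 cells; at 10000 UMIs, 46.7% for the Fn1/Ccr2 pair. The cause was not tested. Leaving out 1 run at a time gave F13a1 245 to 332, F3 268 to 311, F7 86.7 to 96.6, Procr 178 to 217, Tfpi2 71.4 to 104 and Thbd 114 to 177. Runs aside, levels of F5 and F10 in neutrophils, Tfpi in fibroblasts and Thbd in macrophages stayed within their intervals under all 9 settings. No paired analysis was possible because barcodes carry no sample, so edgeR, DESeq2 and a replicate block were not run. The sub-gates and the 10000-UMI depth were added after the data were seen. Gates of few cells, such as 28 endothelial cells and 60 T cells, allow wide intervals.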
